A study of Mus musculus with 78 samples.

Results

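The genes described are 10 nuclear genes for subunits of the machinery that imports proteins into mitochondria, out of 55401 genes in each count table. They were listed by name: Tomm20, Tomm22, Tomm40, Tomm5 and Tomm7 of the outer membrane, Timm17a, Timm23, Timm44 and Timm50 of the inner membrane, and Timm13 of the space between the membranes. All 10 passed the filter on low counts in each of the 3 tables, and ZFP143 peaks at their promoters are described with them. The cells were E14TG2a mouse embryonic stem cells in which each Zfp143 allele carries an FKBP-2xHA-P2A-GFP cassette at its end, so that dTAG-V1 at 500 nM targets ZFP143, a zinc-finger transcription factor that binds promoters, for degradation. Every group used here carries this tag, the DMSO controls included. The cells were homozygous clones grown in medium with LIF and inhibitors of MEK and GSK3, except during treatment with retinoic acid. TT-seq, which sequences RNA labelled with 2 mM 4-thiouridine for 10 min and so reads RNA made in that interval, had a DMSO group and groups treated with dTAG-V1 for 2 h, 6 h or 24 h. RNA-seq had a DMSO group and groups treated for 24 h, 48 h or 72 h. In a further RNA-seq experiment, cells held for 24 h in DMSO or dTAG-V1 were collected before retinoic acid (RA) or after 24 h of RA in the same condition, so that the depleted cells with RA had 48 h of dTAG-V1. Each of the 12 groups had 2 libraries, which the methods call biological replicates for TT-seq and RNA-seq. Neither the labels nor the methods say whether these were separate clones, and the p-values measure the spread between these libraries.

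Mitochondria make few of their own proteins and take up the others from the cytosol. The TOM complex is the entry gate in the outer membrane: Tomm40 forms its channel, Tomm20 and Tomm22 are receptors that recognise targeting signals, and Tomm5 and Tomm7 are small subunits that bear on its assembly. Proteins with a cleavable targeting sequence then pass the TIM23 complex of the inner membrane, where Timm23 and Timm17a form the core, Timm50 receives the incoming chain and Timm44 anchors the chaperone motor that pulls it in. Timm13 is a small chaperone that, paired with a Timm8 protein, escorts hydrophobic proteins across the space between the membranes.

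ZFP143 peaks lay at the promoters of 2 of the 10 genes, Timm13 and Tomm40. A promoter ran from 2000 bp before to 1000 bp after a transcript start, and the peak centre had to lie within 2000 bp of that start. By the same rule 14.9% of the 13660 protein-coding genes tested in TT-seq had a peak. The Timm13 peak (mm10, chr10:80900551-80901388) was centred on the start itself, at 0 bp, with a fold enrichment over input of 119, rank 65 of the 3189 peaks in the list. The Tomm40 peak (chr7:19715770-19716450) was centred 671 bp before the Tomm40 start, in an intron of the antisense gene Gm20512, with a fold enrichment of 42.7 and rank 837. Both were above the median enrichment of the list, 20.8. The remaining 8 genes had their nearest ZFP143 peak between 62.8 kb (Timm17a) and 550 kb (Tomm7) from a start. CTCF peaks overlapped neither of the 2 ZFP143 peaks. A CTCF peak lay at the promoters of Tomm5 and Timm23, centred 55 bp and 639 bp from a start.

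The reference sequence under the 2 peaks is shown because these are the sites that set Timm13 and Tomm40 apart from the other genes. The sequences are those of RefSeq, build GRCm38.p6, on the minus strand, on which both genes lie, written 5′ to 3′, and capitals mark matches on either strand to one of 4 searched strings. Timm13 is shown for the 150 bases before its start (chr10:80900970-80901119) and Tomm40 for the 101 bases about its peak summit (chr7:19716030-19716130).
Timm13: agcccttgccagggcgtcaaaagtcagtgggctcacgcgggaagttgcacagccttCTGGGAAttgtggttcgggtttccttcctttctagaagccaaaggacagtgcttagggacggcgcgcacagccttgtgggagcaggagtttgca
Tomm40: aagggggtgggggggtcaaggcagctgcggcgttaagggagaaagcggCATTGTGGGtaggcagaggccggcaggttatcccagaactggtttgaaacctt

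The strings ACTACAA and CCCAGNNTG, parts of the known sites of ZNF143, the human counterpart, had no match within 50 bases of either summit. In the same 101 bases 31.0% of the 3189 peaks held at least 1 of them. Exact strings find only part of the sites, as the motif search of the paper found the known motifs in nearly all ZFP143 peaks. A peak without a match here may thus still hold a site. Further strings, TTCCCAG and CCCANNATG, which overlap CCCAGNNTG in part, were chosen after these sequences had been read. TTCCCAG is the match in Timm13, on the opposite strand from 94 bases before the start, which is outside that window, and it occurred in 25.3% of the peaks and 10.9% of 32619 RefSeq promoters. CCCANNATG is the match in Tomm40, also on the opposite strand, and it occurred in 21.4% of the peaks and 5.05% of the promoters.

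RefSeq promoters, 250 bases before to 50 after a start, matched 9 of the 10 genes, and 3 of the 9 held CCCAGNNTG, against 9.14% of 32619 promoters. These 3, Tomm20, Timm17a and Timm44, had no ZFP143 peak, and their matches are shown in stretches of 30 bases to make that plain. The Tomm20 stretches are chr8:126945961-126945990 and chr8:126945938-126945967, the Timm17a stretch is chr1:135313739-135313768, and the Timm44 stretches are chr8:4276065-4276094 and chr8:4275951-4275980, all on the minus strand. ACTACAA was in none of the 9 promoters and in 3.26% of all promoters.
Tomm20: acgccccgccCCCAGCTTGgcgtctcagcc
Tomm20: ctcagccgcgCAGACTGGGtccatctgcgc
Timm17a: tcaatttccgCCCAGCGTGccgtagactct
Timm44: tctgccccctCCCAGGCTGgatcgcagaat
Timm44: cccgggttTTCCCAGGCTGgtgctgttcta

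Libraries held 9721568 to 16532077 counts in TT-seq, 10261851 to 15316700 in the RNA-seq time course and 13890761 to 27089033 in the RA experiment. The degron acts on the protein, so the Zfp143 transcript does not check the depletion. Its level was 71.3 and 74.4 CPM in the TT-seq DMSO libraries and 161 to 169 CPM in the 6 depleted ones. CPM is the count scaled by the library total after adjustment with the TMM factor of edgeR. The Zfp143 mRNA was also higher in every depleted group. All 7 pluripotency markers, among them Pou5f1 and Nanog, were detected in every group. Their summed level was 3334 to 3880 CPM in TT-seq, while in the RNA-seq time course it was 5380 to 5496 CPM in DMSO and 3883 to 3940 CPM at 72 h. Markers of other cell types were far lower but moved with depletion. In the time course the neural sum (Pax6, Sox1, Neurog2) was 2.76 to 3.06 CPM in DMSO and 9.48 to 11.1 CPM at 48 h and 72 h, and the primitive endoderm sum was 5.79 to 6.13 CPM in DMSO and 11.2 to 14.5 CPM at those times. In TT-seq the primitive endoderm sum was 7.70 to 11.1 CPM in DMSO and 16.1 to 16.9 CPM at 24 h, and the neural sum was 1.24 to 2.90 and 3.95 to 4.62 CPM. Fibroblast and trophoblast markers summed to at most 2.41 CPM in both tables, with Dcn at 0 in every group. The fibroblast sum of the time course was 0.184 to 0.214 CPM in DMSO and 1.77 to 2.41 CPM at 48 h and 72 h. Before RA the pluripotency sum was 6348 to 6523 CPM in DMSO and 5481 to 5508 CPM in dTAG, while the neural sum was 11.98 to 12.9 and 17.04 to 18.5 CPM, the primitive endoderm sum 3.83 to 4.30 and 6.80 to 9.45 CPM, and the fibroblast sum 0.735 to 0.860 and 1.77 to 1.87 CPM. After RA the pluripotency sum was 675 to 1003 CPM in DMSO and 1291 to 1514 CPM in dTAG, and the neural sum was 76.1 to 84.7 and 36.5 to 37.1 CPM. The other lists were higher in dTAG after RA, with primitive endoderm at 22.2 to 23.3 CPM in DMSO and 45.0 to 46.5 CPM in dTAG, fibroblast at 5.12 to 8.87 and 18.4 to 18.8 CPM, and trophoblast at 1.57 to 1.94 and 4.33 to 6.22 CPM. The part of these differences in the results below was not tested, and fewer cells of a kind and less RNA per cell cannot be told apart in bulk libraries.

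In DMSO the mRNA levels of the 10 genes, given as CPM per kb of exon in the RNA-seq time course, spanned about an order of magnitude. Tomm7 was highest at 93.6 CPM per kb and Timm17a lowest at 8.84 CPM per kb. In this table the TOM subunits held the top 5 ranks, with Tomm22 at 66.4, Tomm5 at 55.6, Tomm40 at 55.4 and Tomm20 at 52.7 CPM per kb, and the Tomm40 libraries overlapped in level with those of Tomm5 and of Tomm20. Timm13 followed at 47.2 CPM per kb, then Timm44 at 37.9, Timm50 at 33.7 and Timm23 at 15.3, and these neighbours did not overlap. The order was not the same in the DMSO libraries without RA of the other RNA-seq experiment, where Tomm40 at 92.3 and Tomm7 at 89.6 CPM per kb led with overlapping libraries, Timm13 at 74.7 stood above Tomm5 at 51.0, and Tomm20 at 39.9 was below Timm44 at 46.5. Timm23 and Timm17a were the lowest in both. In TT-seq, where reads fall on introns too and levels are CPM per kb of gene, Tomm20 was highest at 31.1 and Tomm40 next at 14.4. The Tomm20 and Timm23 genes each hold a small nucleolar RNA gene, and Timm44 a misc RNA gene, whose reads are not separated from the host in TT-seq.

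To ask which import genes lose transcription soon after ZFP143 is removed, TT-seq levels were compared with DMSO. Timm13 and Tomm40 fell at every time, 2 h, 6 h and 24 h of depletion, and the other 8 genes did not pass the test at any time. The 2 genes that fell are the 2 with a ZFP143 peak at the promoter. A gene counted as lower at an adjusted p under 0.05 by edgeR's quasi-likelihood test and a log2 change beyond 0.5. By that rule 2.43% of the 17870 genes tested were lower at 2 h, 2.83% at 6 h and 4.09% at 24 h. These are 435, 506 and 730 genes, and leaving out any 1 library of a comparison lowered the numbers to between 102 and 290, 109 and 309, and 340 and 467. Among protein-coding genes, 17.9% of the 2041 with a ZFP143 peak at the promoter and 0.232% of the 11619 without one were lower at 2 h.

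Nascent Timm13 was at 14.9 and 11.0 CPM in the DMSO libraries (144 counts each) and at 2.39 and 2.29 CPM at 2 h (30 and 38 counts). It was at 1.79 and 1.90 CPM at 6 h and at 2.07 and 0.684 CPM at 24 h. Every depleted library was thus below both DMSO libraries, with no overlap. The log2 change was -2.46 ± 0.39 (SE, 2 libraries per group, edgeR adjusted p = 0.0128) at 2 h, a level of 18.2% of DMSO. It was -2.80 ± 0.41 (adjusted p = 0.00784) at 6 h and -3.27 ± 0.43 (adjusted p = 0.00384) at 24 h. The difference between 24 h and 2 h, -0.81 with a 95% interval of -1.84 to 0.22, did not pass the test (edgeR adjusted p = 0.442). The value at 24 h rests on 21 and 9 counts, and it was -4.22 without replicate 1 and -2.62 without replicate 2 of that group.

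Nascent Tomm40, from the gene of the channel itself, was at 195 and 211 CPM in DMSO. It was at 112 and 123 CPM at 2 h, 97.4 and 110.0 CPM at 6 h, and 85.4 and 107 CPM at 24 h. Here too every depleted library lay below both DMSO libraries. The log2 changes were -0.79 ± 0.14 (SE, edgeR adjusted p = 0.0213), -0.97 ± 0.14 (0.00784) and -1.08 ± 0.14 (0.00391), so that 57.9%, 51.0% and 47.3% of the DMSO level was left. From 2 h to 24 h the change was -0.29 (95% interval -0.62 to 0.03), which did not pass (edgeR adjusted p = 0.369), and of all tested genes 0.0895% passed in that comparison (10 lower and 6 higher, against 13 and 19 with library totals, 195 and 229 with DESeq2's test, 390 and 572 with a replicate block, 490 and 820 without the count filter, and 0 and 0 without any 1 of the 4 libraries). At 2 h the Timm13 call was lost without DMSO replicate 1 or without either 2 h library (adjusted p 0.0672, 0.135 and 0.146, edgeR), and the Tomm40 call without any 1 of the 4 libraries (0.0514 to 0.227). At 6 h both calls were lost without either 6 h library (0.0631 to 0.123), while at 24 h neither call was lost without any 1 library (0.00371 to 0.0257).

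The 8 genes without a ZFP143 peak had log2 changes at 2 h between -0.36 (Timm50) and 0.17 (Timm23). Timm50, the receptor of the TIM23 complex, was at 28.2 and 32.9 CPM in DMSO, 24.0 and 23.7 CPM at 2 h, 19.3 and 24.9 CPM at 6 h, and 20.3 and 24.2 CPM at 24 h. Its 6 depleted libraries were all below the DMSO libraries, yet the edgeR adjusted p was 0.522, 0.228 and 0.186. Tomm22 was at 21.8 and 23.5 CPM in DMSO and between 14.6 and 20.6 CPM in the 6 depleted libraries, with adjusted p from 0.268 to 0.626. For these 2 genes the 95% intervals of the log2 change at 2 h, -0.77 to 0.05 and -0.74 to 0.14, include decreases beyond 0.5.

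The other 6 lay closer to DMSO. The intervals at 2 h were -0.36 to 0.22 for Tomm20, -0.46 to 0.19 for Tomm5, -0.30 to 0.45 for Tomm7, -0.28 to 0.27 for Timm17a, -0.18 to 0.52 for Timm23 and -0.35 to 0.18 for Timm44, so decreases beyond 0.5 lay outside each of them. The median log2 change over the 10 genes was -0.11 at 2 h, -0.16 at 6 h and -0.15 at 24 h, beside 0.01 over all tested genes at each time.

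**Figure D1:**
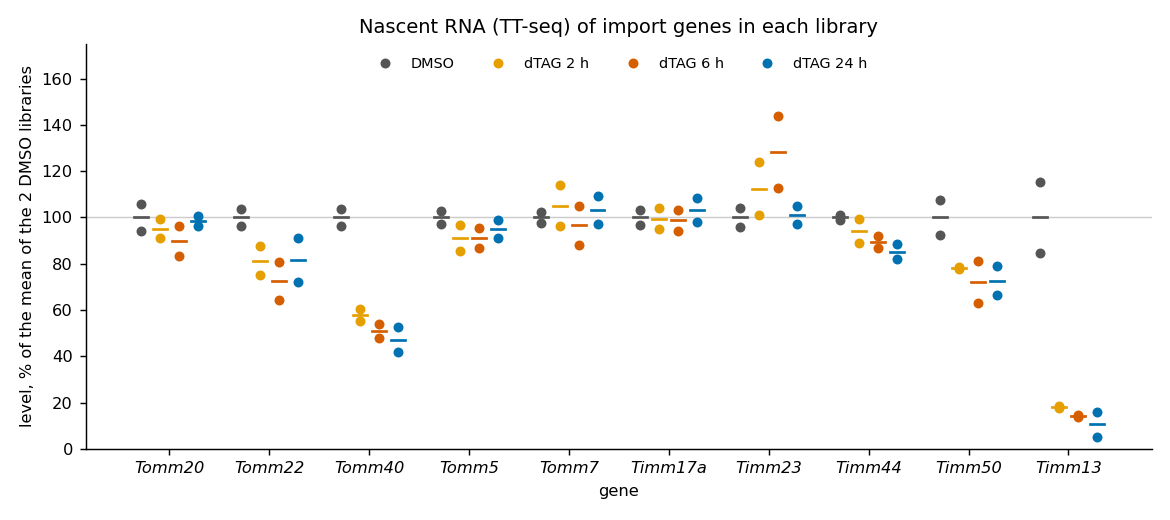
TT-seq level of each import gene in every library (points; 2 per group, short lines mark their mean) as a percentage of the mean of the 2 DMSO libraries, by hours of dTAG-V1. Timm13 and Tomm40 sit well below 100% in all depleted libraries, with Timm13 near 18.2% and Tomm40 near 57.9% at 2 h, while Tomm22 and Timm50 lie between these and the other genes.

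**Figure D2:**
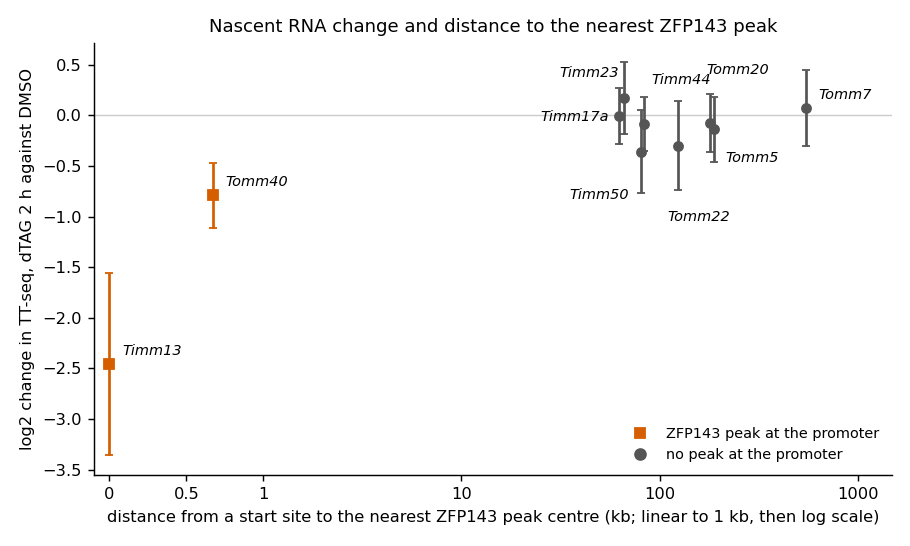
Log2 change in TT-seq at 2 h against DMSO (points, with 95% intervals) by the distance from a transcript start to the nearest ZFP143 peak centre (kb, linear to 1 kb and then on a log scale). The 2 genes with a peak at the promoter (squares), Timm13 at 0 kb and Tomm40 at 0.671 kb, have the lowest values, and the other 8 (circles) lie at 62.8 kb or more with changes from -0.36 to 0.17.

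The mRNA of the same genes was followed from 24 h to 72 h of depletion. Timm13 mRNA fell by 24 h and stayed low, and at 72 h the mRNAs of Tomm40, Tomm7 and Tomm20 had fallen as well. Calls here used edgeR's glmTreat against a fold of 1.5 at an adjusted p under 0.01. The number of import genes called lower was 1 of 10 at 24 h (3.41% of the 13925 genes tested were lower), 1 of 10 at 48 h (7.71%) and 4 of 10 at 72 h (12%). Scaling by library totals changed the background from 475 lower and 323 higher genes to 385 and 495 at 24 h, from 1073 and 1456 to 698 and 2047 at 48 h, and from 1677 and 1912 to 1109 and 2736 at 72 h. None of the 10 was called higher.

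Timm13 mRNA was at 67.9 and 61.6 CPM in DMSO and at 10.8 and 11.0 CPM at 24 h. It was at 9.92 and 8.73 CPM at 48 h and at 7.12 and 9.82 CPM at 72 h. The 6 depleted libraries did not overlap with DMSO, and the fitted levels of the depleted groups were between 13.4% and 16.9% of DMSO. The log2 changes were -2.56 ± 0.10 (SE, glmTreat adjusted p = 1.22e-15), -2.79 ± 0.11 (8.43e-17) and -2.90 ± 0.11 (1.37e-17).

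Tomm40 mRNA was at 265 and 236 CPM in DMSO, 193 and 196 CPM at 24 h, 156 and 147 CPM at 48 h, and 139 and 137 CPM at 72 h. Each depleted library was below both DMSO libraries. The log2 change was -0.36 ± 0.05 at 24 h (glmTreat adjusted p = 1), -0.72 ± 0.05 at 48 h (0.010, just outside the threshold) and -0.86 ± 0.05 at 72 h (7.53e-06). At 48 h the gene passed without DMSO replicate 2 (log2 change -0.80, glmTreat adjusted p = 0.000259), and over the alternatives tested against a fold of 1.5 its adjusted p ran from 0.000259 to 1.

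Tomm7 and Tomm20 had no ZFP143 peak and no called change in nascent RNA. Tomm7 mRNA was at 105 CPM in both DMSO libraries, 83.1 and 85.0 CPM at 24 h, 64.7 and 63.0 CPM at 48 h, and 61.6 and 59.0 CPM at 72 h. Tomm20 mRNA was at 266 and 252 CPM in DMSO, 218 and 201 CPM at 24 h, 210 and 190 CPM at 48 h, and 155 and 149 CPM at 72 h. In both genes the 72 h libraries were the lowest of the table. At 72 h the log2 change was -0.81 ± 0.06 for Tomm7 (glmTreat adjusted p = 0.000248) and -0.77 ± 0.05 for Tomm20 (0.000736). The Tomm20 call was lost without 72 h replicate 2 (glmTreat adjusted p = 0.0202, over its alternatives tested against a fold of 1.5 from 2.30e-05 to 0.949). With DESeq2's test Tomm7 and Tomm20 did not pass (0.0207 and 0.0177). With library totals in place of TMM, which moved the median of all genes by up to 0.22 in this table, Tomm40, Tomm7 and Tomm20 kept their direction but were not called (log2 -0.64, -0.59 and -0.55).

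Tomm5 mRNA, a small TOM subunit like Tomm7, was at 48.1 and 48.4 CPM in DMSO, 47.6 and 46.6 CPM at 24 h, 35.8 and 35.4 CPM at 48 h, and 29.2 and 29.1 CPM at 72 h. The depleted libraries were lower at each later time, but the change at 72 h of -0.73 ± 0.07 did not pass (glmTreat adjusted p = 0.0297). The remaining genes, Tomm22, Timm17a, Timm23, Timm44 and Timm50, had log2 changes at 72 h between -0.31 and -0.16, and none passed at any time. The TIM23 core subunit Timm17a had its lowest value at 48 h, -0.51 ± 0.07 (glmTreat adjusted p = 1). None of the 10 passed in the comparison of 72 h with 24 h, where the test called 14.1% of genes in either direction (919 lower and 1048 higher, or 720 and 1264 with library totals) and Tomm5 had the greatest difference (-0.69, glmTreat adjusted p = 0.117). The median log2 change over the 10 genes was -0.27 at 24 h, -0.41 at 48 h and -0.52 at 72 h, beside medians of 0.01 to 0.02 over all tested genes.

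**Figure D3:**
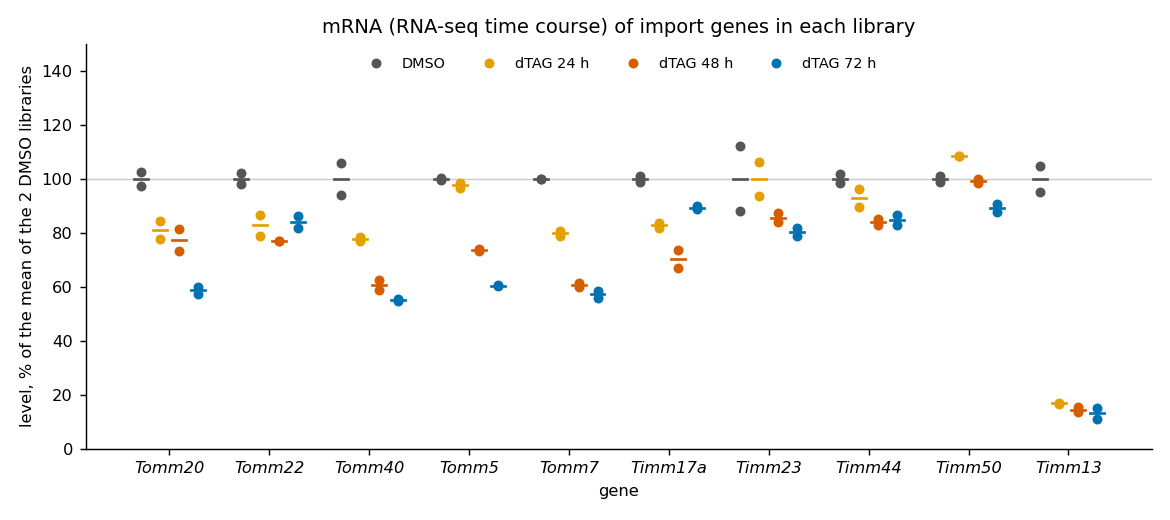
mRNA level of each import gene in every library of the RNA-seq time course (points; short lines mark the mean of 2 libraries) as a percentage of the mean of the 2 DMSO libraries. Timm13 is near 13.4% to 16.9% of DMSO at all 3 times, and Tomm40, Tomm7, Tomm20 and Tomm5 are lowest at 72 h, with 55.3% left for Tomm40 and 57.2% for Tomm7.

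**Figure D4:**
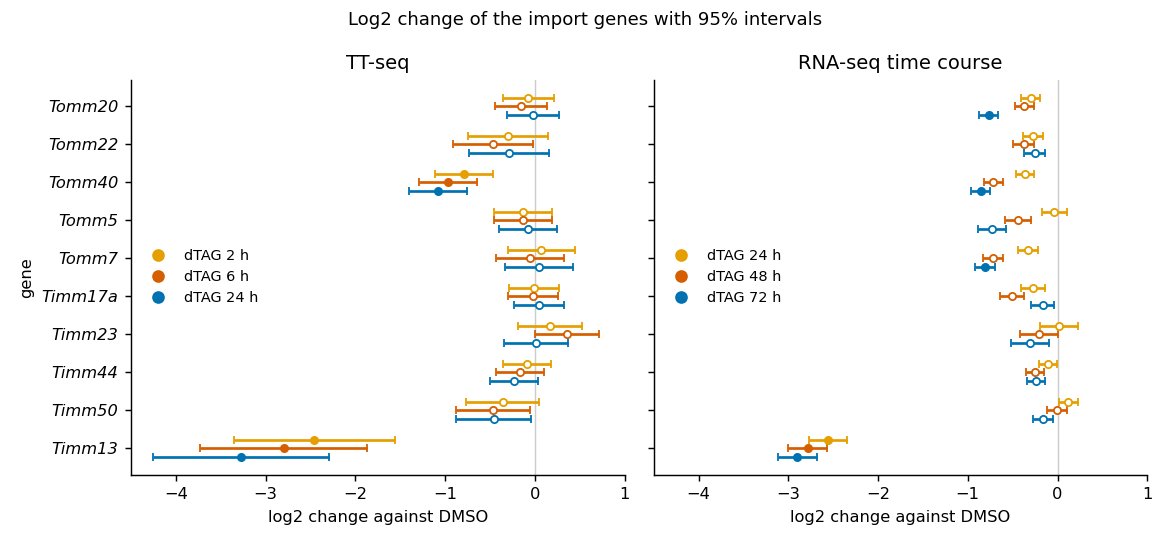
Log2 change against DMSO with 95% intervals for each import gene in TT-seq (left; 2 h, 6 h, 24 h) and in the RNA-seq time course (right; 24 h, 48 h, 72 h). Filled points passed the test of their table, which was against no change in TT-seq and against a fold of 1.5 in RNA-seq, and Tomm7 and Tomm20 have filled points in RNA-seq at 72 h but none in TT-seq.

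In the RA experiment depletion was compared with DMSO before and after RA, and RA was compared with no RA in each condition. RA came with a change to a medium for which the methods list no LIF and no inhibitors of MEK or GSK3. The effects of RA and of the medium cannot be told apart. In dTAG the comparison with RA also sets 48 h of depletion against 24 h, which cannot be told apart from RA either. With depletion, Timm13 fell both before and after RA and Tomm7 after RA. With RA, none of the 10 import genes was called higher, and Tomm40, Tomm5 and Tomm22 were called lower in DMSO and in dTAG. Depletion called 1 of 10 genes lower before RA (3.66% of the 15915 genes tested) and 2 of 10 after RA (7.36%). RA called 3 of 10 lower in DMSO (18.1%) and 7 of 10 lower in dTAG (18.5%). With DESeq2's test the background for depletion after RA went from 1171 lower and 1449 higher genes to 765 and 789. With library totals the background for RA went from 2877 lower and 4113 higher genes to 1710 and 5164 in DMSO and from 2939 and 3980 to 1518 and 5447 in dTAG. For depletion it went from 583 and 436 to 481 and 626 before RA, where 143 were higher with DESeq2's test and 224 to 286 without 1 library, and from 1171 and 1449 to 762 and 2089 after RA.

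Timm13 mRNA was at 98.5 and 106 CPM in DMSO before RA and at 80.6 and 77.7 CPM after RA. In dTAG it was at 12.6 and 11.1 CPM before RA and at 15.8 and 12.01 CPM after RA. The depleted libraries were the 4 lowest in the table. The log2 change with depletion was -3.12 ± 0.11 before RA (glmTreat adjusted p = 2.16e-14) and -2.51 ± 0.11 after RA (1.25e-12). The difference between these, 0.61 ± 0.15, passed edgeR's quasi-likelihood test of the interaction (adjusted p = 0.00302), at which 13.7% of genes were higher and 18.0% lower. Without dTAG replicate 1 of the RA group the difference was 0.46 (adjusted p 0.0242, over its alternatives 0.000180 to 0.0370), under the minimum change of 0.5.

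Tomm40 mRNA was at 385 and 448 CPM in DMSO before RA, 118 and 114 CPM in DMSO after RA, 249 and 243 CPM in dTAG before RA, and 70.0 and 68.8 CPM in dTAG after RA. The 4 groups did not overlap, and the lowest was depleted and treated with RA. The change with RA was -1.84 ± 0.08 in DMSO and -1.83 ± 0.08 in dTAG (log2, glmTreat adjusted p = 5.46e-13 and 8.15e-13). Depletion gave -0.76 ± 0.07 before RA and -0.75 ± 0.08 after RA, neither of which passed against a fold of 1.5 (glmTreat adjusted p = 0.0368 and 0.0324). The interaction was 0.01 with a 95% interval of -0.21 to 0.24 (edgeR adjusted p = 0.933). Before RA the depletion effect passed without DMSO replicate 1 of that group (log2 -0.87, glmTreat adjusted p = 0.00184, over its alternatives tested against a fold of 1.5 from 0.00184 to 0.524).

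Tomm7 and Tomm5 were the small TOM subunits whose response to RA differed with depletion. Tomm7 was at 107 and 94.9 CPM in DMSO before RA, 90.6 and 93.5 CPM in DMSO after RA, 96.9 and 95.6 CPM in dTAG before RA, and 55.4 and 49.5 CPM in dTAG after RA. The last of these groups was far below the others, and the DMSO libraries with RA lay just below those without RA. The change with RA was -0.13 ± 0.08 in DMSO, which did not pass (glmTreat adjusted p = 1), and -0.88 ± 0.08 in dTAG (0.000415), and the interaction was -0.74 ± 0.11 (edgeR adjusted p = 1.92e-05). The change with depletion after RA was -0.81 ± 0.08 (glmTreat adjusted p = 0.00748), a call that was lost without either DMSO replicate or dTAG replicate 2 of the RA groups (0.0230, 0.0470 and 0.174), with DESeq2's size factors or test (0.0157 and 0.245) and with library totals (0.524).

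Tomm5 was at 50.4 and 38.1 CPM in DMSO before RA, 20.1 and 21.8 CPM in DMSO after RA, 52.2 and 49.4 CPM in dTAG before RA, and 15.3 and 14.1 CPM in dTAG after RA. The change with RA was -1.09 ± 0.12 in DMSO (log2, glmTreat adjusted p = 7.79e-05) and -1.79 ± 0.12 in dTAG (7.25e-10). The interaction was -0.70 ± 0.16 (edgeR adjusted p = 0.00162).

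Tomm22, the central TOM receptor, was at 145 and 144 CPM in DMSO before RA, 68.1 and 70.1 CPM in DMSO after RA, 135 and 126 CPM in dTAG before RA, and 50.9 and 46.2 CPM in dTAG after RA. RA changed it by -1.06 ± 0.07 in DMSO and -1.43 ± 0.08 in dTAG (log2, glmTreat adjusted p = 7.53e-07 and 1.95e-10). Its interaction of -0.36 was under the minimum change.

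In the inner membrane complex, Timm50 (-0.92), Timm23 (-0.90) and Timm17a (-0.78) were called lower with RA in dTAG (log2, glmTreat adjusted p = 0.000231, 0.00203 and 0.00854). In DMSO they had -0.58, -0.43 and -0.49 and did not pass (0.448, 0.992 and 0.916), and their interactions of -0.34, -0.47 and -0.29 were under the minimum change. Calls in dTAG were lost for Timm50 without dTAG replicate 2 of the RA group (0.0367), for Timm23 without either dTAG replicate of the RA group or replicate 1 before RA (0.0120 to 0.0967), and for Timm17a without any 1 of the 4 libraries (0.0200 to 0.283). The Tomm7 call with RA in dTAG was lost without dTAG replicate 2 of the RA group (0.0738). Timm44, the motor anchor, and Tomm20 did not pass for RA in either condition, though Timm44 passed in DMSO without DMSO replicate 1 before RA (-0.76, 0.00864). The Timm23 interaction passed without that library (-0.58), without DMSO replicate 2 of the RA group (-0.51) or without dTAG replicate 2 before RA (-0.51). With library totals, which moved the median of all genes by up to 0.39, Tomm5 (-0.77) and Tomm22 (-0.75) in DMSO remained beyond a fold of 1.5 but missed the adjusted p (0.0421 and 0.0109, glmTreat), and Timm50 (-0.53), Timm23 (-0.51), Tomm7 (-0.48) and Timm17a (-0.39) in dTAG came within that fold, and with DESeq2's test the last 4 did not pass either. Timm17a was also lost with DESeq2's size factors (-0.74, 0.0241). The median log2 change of the 10 genes with RA was -0.53 in DMSO and -0.89 in dTAG, beside 0.03 and 0.00 over all tested genes.

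**Figure D5:**
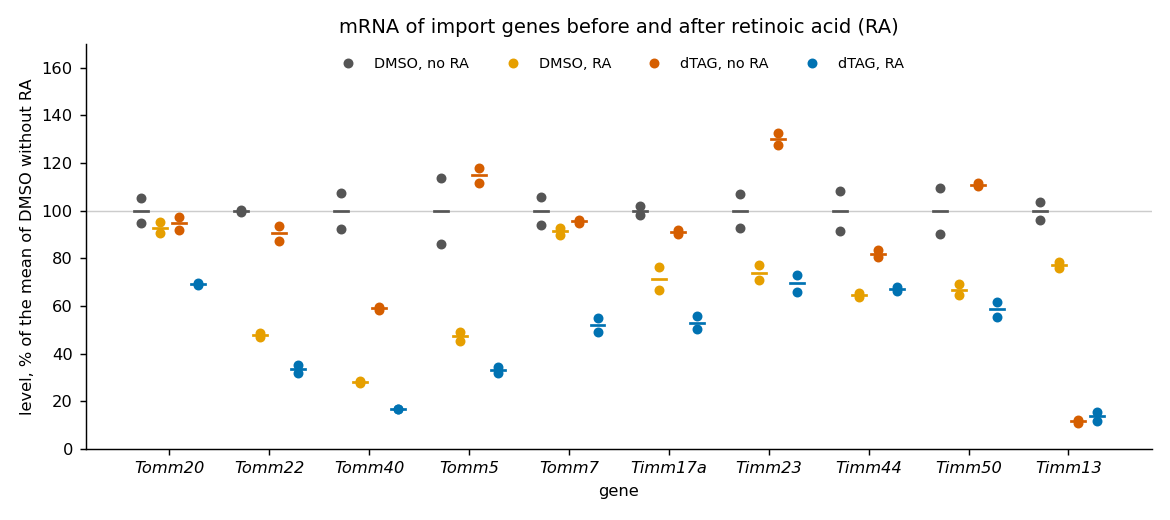
mRNA level of each import gene in every library of the RA experiment (points; short lines mark the mean of 2 libraries) as a percentage of the mean of the 2 DMSO libraries without RA. Tomm40, Tomm5 and Tomm22 are well below 100% after RA in both conditions, Timm13 is low in the dTAG groups, and Tomm7 is low in the dTAG group with RA.

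A list of 36 other genes of the import pathway was read beside these: further TOM and TIM subunits, the sorting and assembly machinery, the intermembrane space pathway and the processing peptidases. In TT-seq 35 of them were tested, and the number lower was 1 at 2 h, 1 at 6 h and 2 at 24 h, while 1 was higher at 24 h (2.02% of all genes, 361, were higher, a number that was 98 to 165 without 1 of the 4 libraries and 1009 with a replicate block). Timm21, a TIM23 subunit, was lower at all 3 times, with 2.38 and 2.90 CPM in DMSO and 0.304 to 0.935 CPM in the depleted libraries (log2 -1.79, -1.71 and -2.91, edgeR adjusted p = 0.0330, 0.0387 and 0.00540). This gene had few counts, 23 and 38 in DMSO and 4 to 12 in each depleted library. Its 2 h call was lost without 2 h replicate 1 and its 6 h call without 6 h replicate 2 (0.230 and 0.275), and DESeq2 gave it no adjusted p. Chchd4, the import receptor of the intermembrane space, was at 84.9 and 89.8 CPM in DMSO and 60.0 and 57.1 CPM at 24 h (log2 -0.58, edgeR adjusted p = 0.0308), a call lost without any 1 of the 4 libraries (0.0692 to 0.136) and with library totals (0.0538). Hspa9, the chaperone of the import motor, was at 364 and 393 CPM in DMSO and 695 and 608 CPM at 24 h (log2 0.78, edgeR adjusted p = 0.00922), a call lost without replicate 1 of either group (0.0504 and 0.0615). ZFP143 peaks by the same rule lay at Timm21, Chchd4, Timm22 and Tomm70a, and the peak at Timm22 overlapped a CTCF peak. Timm22 and Tomm70a were not called in TT-seq at any time. Nascent Tomm70a was at 142 and 183 CPM in DMSO and 100 to 119 CPM in the depleted libraries. Its log2 changes were -0.60, -0.53 and -0.56 at 2 h, 6 h and 24 h (edgeR adjusted p = 0.121, 0.127 and 0.0777).

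In the RNA-seq time course 33 of the 36 were tested. None was called at 24 h, 1 was lower and 1 higher at 48 h (10.5% of all genes were higher) and 1 was lower at 72 h. Tomm70a, a TOM receptor, fell by 0.78 at 48 h and by 0.95 at 72 h on the log2 scale (glmTreat adjusted p = 0.000144 and 6.31e-09), from 423 and 442 CPM in DMSO to 221 and 227 CPM at 72 h. The 48 h call was lost with library totals (-0.58, glmTreat adjusted p = 0.792). Hspa9 rose by 0.81 at 48 h (glmTreat adjusted p = 3.12e-06), from 1091 and 1126 CPM to 1942 and 1954 CPM. The median log2 change of the 33 at 72 h was -0.11. Timm21 did not pass the count filter in this table. It was at 4.41 and 5.56 CPM in DMSO and at 0 to 0.365 CPM in the depleted libraries.

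In the RA experiment 34 of the 36 were tested, and depletion lowered 1 before RA and 3 after RA. Timm21 was lower both before and after RA (log2 -3.17 and -2.07, glmTreat adjusted p = 2.73e-08 and 2.13e-07). Romo1, a small inner membrane protein, was at 25.3 and 25.7 CPM in DMSO after RA and 9.52 and 9.82 CPM in dTAG after RA (log2 -1.40, glmTreat adjusted p = 6.74e-07). Tomm40l, a paralogue of Tomm40, was at 28.4 and 29.3 CPM and 14.4 and 13.1 CPM in the same groups (log2 -1.06, glmTreat adjusted p = 0.000210, and 0.0127, not called, with library totals). RA lowered 8 and raised 5 of the 34 in DMSO and lowered 10 and raised 1 in dTAG (25.8% and 25% of all genes were higher), and the interaction was lower for 10 and higher for 2.

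Over the 12 group means, each centred within its table on the log2 scale, the 5 genes most like the mean profile of the 10 import genes were Nono, Tomm70a, Txndc17, Prr12 and Pgam1, with Pearson's r from 0.984 to 0.991 among 12811 genes. Among the 10 genes themselves r with that mean ran from 0.581 for Timm23 to 0.961 for Tomm40. Group means of a table share its scaling and the value on which they were centred. Each of the 10 genes is also part of the mean profile, so these values are a description.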

How the data were processed

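The deposited count tables hold raw read counts per gene. The authors mapped reads with STAR to mm10 with GENCODE vM25. For TT-seq they removed duplicates, split reads by strand and counted over whole genes with htseq-count, and for stranded RNA-seq they used the counting mode of STAR. In TT-seq a read over several genes was counted for each of them, so genes nested in a member add to its counts. ZFP143 peaks, called by the authors with MACS2 against input from the HA tag, carry a ratio (fold enrichment over input) and a −log10 q value, and were deposited as 1 list without replicates. The CTCF list pools conditions. Files of 4C were not used here.

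A gene entered the fit of a table if 4 or more of its 8 libraries had over 10 counts. The fit used edgeR 4.0.16 (TMM, glmQLFit, group as the only term, R 4.3.3). TT-seq and the interaction used glmQLFTest at an adjusted p under 0.05 and a log2 change beyond 0.5, and RNA-seq used glmTreat against a fold of 1.5 at 0.01, with Benjamini-Hochberg adjustment over all tested genes. SEs and 95% intervals come from the quasi-likelihood test. The fits were tested on simulated counts, with changes set in genes above the median level. Decreases to 0.5 of the level were found for 64% of genes in TT-seq, 86% in the time course and 74% in the RA experiment. Decreases to 0.25 of the level were found for 100% in each. Alternatives were DESeq2 1.42.0, other scalings, no filter, a replicate block, other thresholds and leaving out each library. Symbols, starts and gene lengths come from GENCODE vM21. Named genes are the 10, Zfp143, of the other import genes those called with the 3 greatest decreases and increases per table against DMSO, and the 5 most like profiles (log2 of CPM + 1). The members and lists were chosen with earlier results of these data known.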

Additional observations from a re-analysis of the deposited data

Results flagged for a closer look

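The change with RA differed between DMSO and dTAG, by the interaction test of edgeR's quasi-likelihood fit, for 3 of the 10 import genes (2 lower, 1 higher) and for 12 of the 34 other import genes tested (10 lower, 2 higher). Over all genes tested 18.0% were lower and 13.7% higher, and the count among the 10 is near that background. Of the 10, Tomm7 had an interaction of -0.74 and Tomm5 of -0.70 on the log2 scale (adjusted p = 1.92e-05 and 0.00162), both with the lowest levels in the depleted libraries with RA, and Timm13 had 0.61 (0.00302). Of the others, those named above were Romo1, Tomm40l and Timm21, and Romo1 had -1.19 (3.18e-06), Tomm40l -0.82 (0.000149) and Timm21 1.09 (0.0130). The Timm21 interaction did not pass without DMSO replicate 1 or either dTAG replicate before RA (adjusted p 0.0501 to 0.0653, edgeR). The depleted libraries with RA had 48 h of dTAG-V1 and those before RA 24 h, so time of depletion and RA cannot be told apart in these differences.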

How the results depend on the processing

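The 28 called changes of the 10 genes kept their direction in all 292 values under the alternatives, and 247 of these stayed past the threshold. Calls of Timm13 were lost under single-library omissions alone, at 2 h and 6 h of TT-seq and in the interaction. The number called lower at 48 h of RNA-seq was 2 with DESeq2's size factors, 3 without the count filter and 2 with the replicate block, and at 72 h 1 with library totals and 2 with DESeq2's Wald test. For depletion after RA it was 1 with DESeq2's size factors, library totals or DESeq2's Wald test, for RA in DMSO 1 with library totals, and for RA in dTAG 3 with library totals or DESeq2's Wald test and 6 with DESeq2's size factors or the block. Under the TT-seq thresholds it was 4 at 48 h, 5 at 72 h, 1 for 72 h against 24 h, 2 for depletion before RA, 5 after RA and 5 for RA in DMSO. Leaving out 1 library gave 0 to 1 at 2 h and 0 to 2 at 6 h in TT-seq, 1 to 2 at 48 h, 1 to 2 for depletion before RA and 1 to 2 after RA, 3 to 6 for RA in dTAG and 0 to 1 for the interaction of Timm13. Without 1 library the lone one of its group is assumed to vary like the others. The cause was not tested. Library totals moved the median of all genes by up to 0.06 in TT-seq, 0.22 in the time course and 0.39 in the RA experiment.

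With a 500 bp window 1 gene, Timm13, had a peak. CCCANNATG, chosen after seeing the data, was in 0 of the 9 promoters.

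Replicate numbers are not stated to pair libraries. Same-numbered deviations from group means correlated at 0.21 to 0.67 between TT-seq groups and at -0.17 to 0.19 in the RNA-seq tables. With the block, genes lower in TT-seq numbered 662, 956 and 1214 at 2 h, 6 h and 24 h against 435, 506 and 730 without it, and genes higher 87, 359 and 1009 against 30, 71 and 361, and of the 10 genes Tomm40 at 48 h passed (adjusted p 0.00888) and Timm17a with RA in dTAG did not (0.0110).

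Timm13 had few TT-seq counts, which limits the precision of its change at each time.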
